A study of Mus musculus with 8 samples.

Results

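The genes described here encode the basement membrane, the thin sheet of matrix on which the corneal epithelium and endothelium rest, and the hemidesmosome, the junction that ties basal epithelial cells to that sheet. A list of 39 symbols was matched to the table of 24918 rows, and members were chosen by level: a symbol was kept if its mean over the 8 libraries was at least 3 on the log2 scale. All 39 had a single row and met that level. The lowest was Frem1 at 4.79 and the highest Col17a1 at 16.90, so no gene fell just outside the limit. They comprise 6 type IV collagens, 9 laminins, 15 linkers, proteoglycans and anchoring proteins, and 9 hemidesmosome components and other receptors.

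Whole corneas came from wild-type male mice of the C57BL/6J background. Every animal, controls included, had been adrenalectomized at 8 weeks of age, and about 4 weeks later their eyes received drops of vehicle or of the synthetic glucocorticoid dexamethasone for 6 h. Each of the 2 groups had 4 RNA sequencing libraries, and a library pooled 4 to 6 corneas. The mice therefore lacked adrenal glucocorticoids in both arms, and nothing in the labels describes mice with intact adrenals. Reads per sample exceeded 40000000 per the labels, while the depth of single libraries is unknown. Levels are on the authors' normalized log2 scale, and all differences below are dexamethasone minus vehicle on that scale, which understates the changes of low genes. Since whole corneas were used, fewer cells of a type and less RNA per cell cannot be told apart.

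Basement membranes are built from a network of type IV collagen and a network of laminin. Nidogens, perlecan and agrin link the networks. Type IV collagen is a trimer, made either of the widespread alpha1 and alpha2 chains or of the alpha3, alpha4 and alpha5 or the alpha5 and alpha6 chains. Laminins are trimers of an alpha, a beta and a gamma chain. Under the corneal epithelium, laminin-332 binds the integrin of alpha6 and beta4 chains, which the plakins plectin and BPAG1, together with collagen XVII, join to keratin filaments. Collagen VII forms the anchoring fibrils below. On the posterior side the corneal endothelium lays down Descemet's membrane, a thick basement membrane that also contains collagen VIII.

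The treatment was visible in known glucocorticoid receptor targets. The lowest dexamethasone library lay above the highest vehicle library for Fkbp5 (14.47 against 13.73), Tsc22d3 (13.49 against 13.02) and Per1 (12.60 against 12.27). A pair of libraries, replicate 1 of the dexamethasone group and replicate 3 of the vehicle group, deviated alike and are called below the libraries that stood apart. Across the 14715 tested rows their deviations from their group means correlated with r = 0.65, a description over rows that are not independent. They were not equally distant from their groups by the SD of the difference between 2 libraries. Vehicle replicate 3 had 0.12 to 0.13 to its group, against 0.07 to 0.08 among the other vehicle libraries. Dexamethasone replicate 1 had 0.10 to 0.12, against 0.09 to 0.11 among the other dexamethasone libraries. In vehicle replicate 3 the summed level of 4 markers of wounded epithelium (Krt16, Krt6a, Krt6b and Krt17) was 17.61, and in dexamethasone replicate 1 it was 17.43, against 17.25 to 17.40 in the other 6 libraries. That sum is mostly Krt6a and Krt6b. Krt16 exceeded the mean of its group's other libraries by 3.48 in vehicle replicate 3 and by 1.78 in dexamethasone replicate 1. The same deviations were 1.70 and 0.78 for Krt17, 0.37 and 0.20 for Krt6a, and 0.12 and -0.00076 for Krt6b. For the 39 genes and those of the related lists, calls that differ without both libraries are given below.

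Of the 39 genes 13 rose and 1 fell at an adjusted p below 0.05 (limma over all tested rows, Benjamini-Hochberg). Among all tested rows, 9.04% rose and 6.03% fell, or 15.1% in either direction. The groups did not overlap for 13 of the 39 genes, 11 with dexamethasone above and 2 below, against 20.7%, 11.6% and 9.11% of all tested rows. The median difference was 0.10 over the 39 genes and -0.0029 over all tested rows. A rise of at least 0.5 was seen in 4 genes (Papln, Tinagl1, Col4a1 and Col4a2), against 0.483% of all tested rows. The risers were 3 of 6 type IV collagens, 3 of 9 laminins, 6 of 15 linkers and anchoring proteins, and 1 of 9 hemidesmosome components and receptors. Without both dexamethasone replicate 1 and vehicle replicate 3, 14 rose and 2 fell, against 8.99% and 5.97% of all tested rows. In that fit Lama3, Lamb3 and Itga6 joined the risers, Frem1 joined the fallers, and Col4a3 and Lamb2 no longer passed. The omitted libraries were picked from these same data, and both were high for Lama3, Lamb3 and Itga6. Leaving them out lowers the SE of these genes by itself, so their calls in that fit are descriptive.

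**Figure D1:**
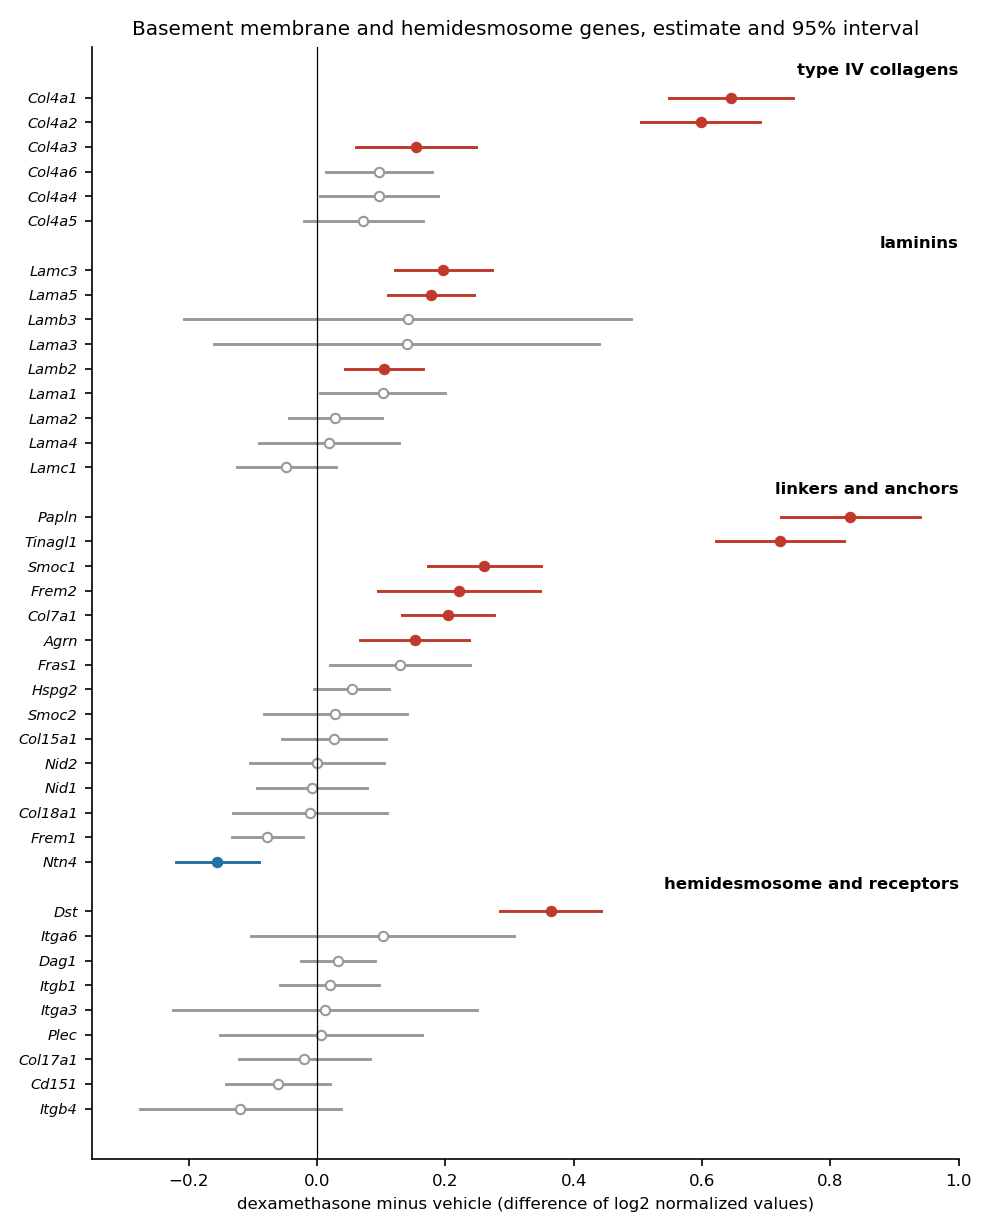
Difference of log2 normalized values, dexamethasone minus vehicle, for the 39 genes by subgroup, with the limma estimate as a point and its 95% interval as a line; filled points passed the adjusted threshold. Col4a1, Col4a2, Papln and Tinagl1 lie between 0.60 and 0.83, Dst at 0.36, and Ntn4 at -0.16 is the one filled point below 0.

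Col4a1 and Col4a2, the genes of the widespread collagen chains, stood highest of the 6 collagen genes per kilobase of exon and rose most. Col4a1 (Entrez 12826; mm9 chromosome 8, 11198423 to 11312826) had values of 13.62, 13.48, 13.58 and 13.72 in the dexamethasone libraries and of 12.95, 12.95, 12.94 and 12.97 in the vehicle libraries. Its means were 13.60 ± 0.10 and 12.95 ± 0.02 (SD, n = 4 each), a difference of 0.64 (SE 0.044, adjusted p = 6.58e-06, limma) or 1.56-fold. Col4a2 (Entrez 12827; mm9 chromosome 8, 11312805 to 11449287) had values of 13.25, 13.11, 13.21 and 13.34 after dexamethasone and of 12.66, 12.63, 12.59 and 12.63 after vehicle. For both genes every dexamethasone library lay above every vehicle library, and dexamethasone replicate 2 was the lowest and replicate 4 the highest of the treated libraries. The means of Col4a2 were 13.23 ± 0.09 and 12.63 ± 0.03 (SD, n = 4 each), and the difference was 0.60 (SE 0.042, adjusted p = 7.41e-06, limma) or 1.51-fold. Col4a1 exceeded Col4a2 by 0.36 to 0.38 in the dexamethasone libraries and by 0.30 to 0.34 in the vehicle libraries, so the spacing was wider in every treated library, a difference that was not tested.

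The pair lies head to head on chromosome 8, with divergent transcripts that start within a shared promoter. The RefSeq windows of both genes are shown because these neighbours moved together. Each window runs from 250 bases before to 50 after the gene's start (GRCm38.p6, chr8:11312777-11313076 on the minus strand for Col4a1 and chr8:11312555-11312854 on the plus strand for Col4a2). The 78 bases common to both windows are in capitals and read as reverse complements of each other.
Col4a1: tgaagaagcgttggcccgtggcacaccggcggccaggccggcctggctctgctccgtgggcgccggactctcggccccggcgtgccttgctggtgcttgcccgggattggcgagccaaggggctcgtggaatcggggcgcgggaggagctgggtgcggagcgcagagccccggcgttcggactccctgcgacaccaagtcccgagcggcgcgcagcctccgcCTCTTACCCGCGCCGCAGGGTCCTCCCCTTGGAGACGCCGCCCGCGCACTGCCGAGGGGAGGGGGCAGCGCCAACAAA
Col4a2: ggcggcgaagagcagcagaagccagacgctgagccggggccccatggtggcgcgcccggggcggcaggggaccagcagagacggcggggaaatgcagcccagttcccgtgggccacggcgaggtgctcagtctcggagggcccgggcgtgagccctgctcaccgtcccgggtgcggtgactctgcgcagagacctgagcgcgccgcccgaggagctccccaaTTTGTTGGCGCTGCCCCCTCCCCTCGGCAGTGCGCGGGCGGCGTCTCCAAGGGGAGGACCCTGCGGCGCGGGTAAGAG
The annotated starts are 21 bases apart, and in mm9 the exons of the genes share 22 bases, 0.323% of the merged exon length of Col4a1. Neither window holds the hexamer AGAACA, which is one arm of the glucocorticoid receptor's palindromic site, on either strand, and GC content is 74.0% and 73.7%. Windows were given for 26 of the 39 genes. The hexamer (either strand) occurred in 4 of their 35 windows, or 11.4%, against 19.0% of 32851 windows of the same length. These were windows of Lamb3, Frem1, Itgb1 and Lama2, none of which rose with all libraries. The full palindrome, AGAACA followed after 3 bases by TGTTCT and so always a match of the hexamer too, was in none of the 35 and in 3 of all windows. The absence of these letters here leaves sites elsewhere unexamined.

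The other chains moved less. Col4a3, which encodes a chain of the alpha3, alpha4 and alpha5 trimer, had values of 12.23, 12.13, 12.29 and 12.25 after dexamethasone and of 12.16, 12.01, 12.01 and 12.10 after vehicle. The groups overlapped, since dexamethasone replicate 2 lay below vehicle replicate 1. The means were 12.23 ± 0.07 and 12.07 ± 0.07 (SD, n = 4 each), and the difference was 0.15 (SE 0.043, adjusted p = 0.0327, limma). The call for Col4a3 was lost without dexamethasone replicate 1 (0.0622), 3 (0.0833) or 4 (0.0854), without vehicle replicate 2 (0.0937), 3 (0.0629) or 4 (0.0656), without both libraries that stood apart (0.0846), with no filter (0.0665) and with quantile normalization (0.0766); all are adjusted p from limma. Col4a4, the partner of Col4a3, had a difference of 0.10 (95% interval 0.0039 to 0.19, adjusted p = 0.151, limma). Col4a5 had 0.07 (-0.02 to 0.16, adjusted p = 0.28) and Col4a6 0.10 (0.01 to 0.18, adjusted p = 0.111, both limma). Without dexamethasone replicate 2, Col4a4 (adjusted p = 0.0188, limma) and Col4a6 (0.041) passed as well, so 5 of the 6 collagens rose in that fit. Col4a4 ranged from 11.04 to 11.23 after dexamethasone and 11.02 to 11.11 after vehicle. Col4a5 ranged from 11.48 to 11.63 after dexamethasone and 11.42 to 11.59 after vehicle. Col4a6 ranged from 10.39 to 10.55 after dexamethasone and 10.34 to 10.42 after vehicle. The ranges of the groups overlapped in each.

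The rise of Col4a1 was larger than that of Col4a3. Col4a1 exceeded Col4a3 by 1.37 ± 0.07 (SD, n = 4) in the dexamethasone libraries and by 0.88 ± 0.07 (SD, n = 4) in the vehicle libraries. The shift of 0.49 had p = 0.0286 in an exact two-sided permutation test over libraries. That is the smallest value 4 against 4 libraries allow, among 70 assignments. It is one of 3 such pairs, each chosen after the values were seen, so their p-values are descriptive. All 3 pairs had this same p, so the Benjamini-Hochberg adjusted value was also 0.0286 and does not correct for that choice.

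**Figure D2:**
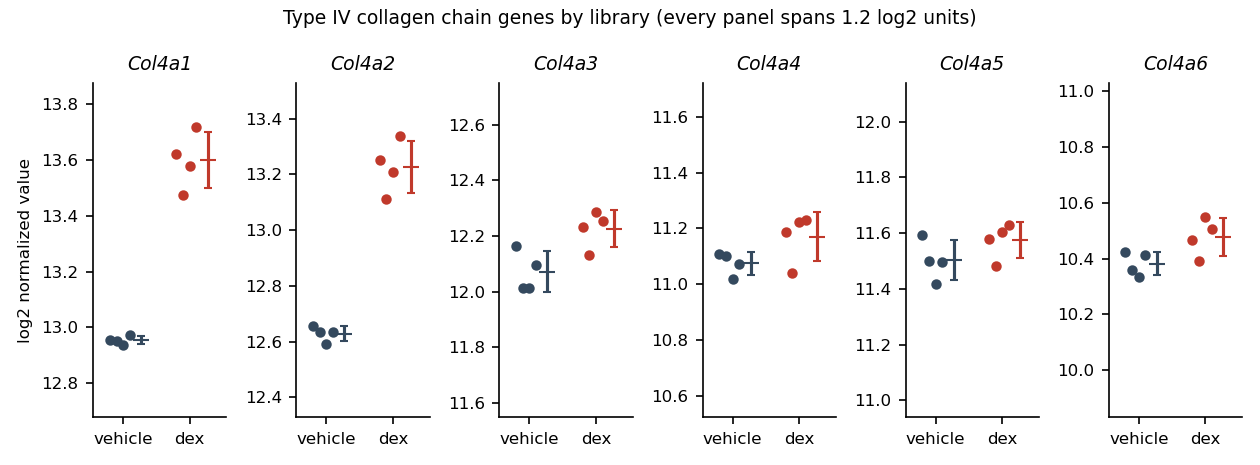
Log2 normalized values of the 6 type IV collagen genes in each library, 4 vehicle (left) and 4 dexamethasone (right), with the mean and SD beside the points and the same span of 1.2 log2 units in each panel. The groups are separate for Col4a1 and Col4a2 and overlap for the other 4 genes.

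Blood vessels and the corneal endothelium also make type IV collagen, and their markers were read beside these genes. The summed log2 level of 7 blood vessel endothelium markers was 10.82 to 10.93 after dexamethasone and 10.71 to 10.80 after vehicle, without overlap. Kdr, the highest of the 7 with means of 10.18 and 10.08, weighs most in that sum. It did not pass itself (0.10, adjusted p = 0.123, limma). One member of that list passed, Tie1 at 0.19. For 6 pericyte and smooth muscle markers the ranges were 11.37 to 11.44 and 11.23 to 11.40, overlapping. Myh11, a smooth muscle myosin gene, was the member of that list that passed, with means of 8.11 ± 0.06 and 7.84 ± 0.08 (SD, n = 4 each), separate groups and a difference of 0.27 (adjusted p = 0.00281, limma). Its other members did not pass and had differences of both signs. Rgs5 had 0.11 and Pdgfrb 0.12, while Acta2 had -0.0045, Cspg4 -0.08 and Des -0.04. The 6 corneal endothelium markers summed to 15.91 to 15.96 and 15.77 to 15.84, with 2 members higher and 2 lower. The 4 lens markers summed to 8.36 to 9.74 and 9.03 to 9.46, overlapping. No marker of these lists was listed at 0. Their part in the rise of Col4a1 and Col4a2 was not tested.

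Among the laminins, Lama5, Lamb2 and Lamc3 rose by small amounts. Lama5, the alpha chain of laminin-511 and laminin-521, had values of 12.89, 12.87, 12.91 and 12.94 after dexamethasone and of 12.75, 12.73, 12.76 and 12.66 after vehicle. The groups were separate, with means of 12.90 ± 0.03 and 12.72 ± 0.05 (SD, n = 4 each) and a difference of 0.18 (SE 0.031, adjusted p = 0.00272, limma). Lamc3, a gamma chain gene and the lowest laminin per kilobase, had values of 5.73, 5.74, 5.84 and 5.76 against 5.62, 5.51, 5.56 and 5.59. The means were 5.77 ± 0.05 and 5.57 ± 0.04 (SD, n = 4 each). Its difference was 0.20 (SE 0.035, adjusted p = 0.00297, limma), again without overlap, and 6.27% of its exon length is shared with another annotated gene. Lamb2, the beta chain gene of laminin-521, had values of 12.32, 12.29, 12.31 and 12.33 against 12.21, 12.22, 12.15 and 12.25. The means were 12.31 ± 0.02 and 12.21 ± 0.04 (SD, n = 4 each). Its difference was 0.10 (SE 0.028, adjusted p = 0.0279, limma).

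The Lamb2 call was fragile although its groups did not overlap. Its adjusted p (limma) was 0.0574, 0.0592 and 0.0716 without dexamethasone replicates 1, 3 and 4, and 0.0592, 0.057 and 0.0583 without vehicle replicates 1, 2 and 3. Without both libraries that stood apart it was 0.0804, with a replicate block 0.0586 and with quantile normalization 0.143. Lamc1, the common gamma chain gene, had means of 11.61 ± 0.06 and 11.66 ± 0.04 (SD, n = 4 each) and did not pass (-0.05, 95% interval -0.13 to 0.03, adjusted p = 0.394, limma). Lama5 exceeded Lamc1 by 1.19 to 1.33 after dexamethasone and by 0.98 to 1.16 after vehicle, a shift of 0.23 (p = 0.0286, exact two-sided permutation test, the smallest possible). This pair too was chosen after the values were seen, so its p is descriptive. Lama1 had a difference of 0.10 (adjusted p = 0.148, limma) and passed without dexamethasone replicate 2 (0.0449). Lama2 and Lama4, alpha chain genes of muscle, nerve and vessel basement membranes, had 0.03 and 0.02 (adjusted p of 0.603 and 0.853, limma). Lama1 ranged from 7.98 to 8.14 after dexamethasone and 7.93 to 8.05 after vehicle. Lama2 ranged from 10.46 to 10.57 after dexamethasone and 10.46 to 10.53 after vehicle. Lama4 ranged from 6.63 to 6.86 after dexamethasone and 6.63 to 6.76 after vehicle. The groups overlapped in all 3 genes.

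Lama3 and Lamb3, which encode the alpha3 and beta3 chains of laminin-332, did not pass with all libraries, and their spread came mostly from the libraries that stood apart. Lama3 had values of 13.18, 12.79, 12.89 and 12.86 after dexamethasone and of 12.70, 12.60, 13.27 and 12.59 after vehicle. Lamb3 had values of 12.13, 11.65, 11.66 and 11.71 after dexamethasone and of 11.49, 11.46, 12.19 and 11.45 after vehicle. In both genes vehicle replicate 3 was the highest of all 8 libraries and dexamethasone replicate 1 the next. The differences were 0.14 for each (SE 0.14 and 0.16, adjusted p of 0.537 and 0.597, limma). Without these 2 libraries the remaining 3 of each group did not overlap, and the differences were 0.22 (SE 0.039, adjusted p = 0.00307) for Lama3 and 0.21 (SE 0.031, adjusted p = 0.000957, both limma) for Lamb3. Without vehicle replicate 3 alone the adjusted p was 0.0187 and 0.0396. Leaving out libraries that were extreme for these genes lowers the SE by itself, so these adjusted p are descriptive.

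Papln and Tinagl1 had the largest differences of the 39 genes. Papln (Entrez 170721; mm9 chromosome 12, 85104584 to 85133332) encodes papilin, a matrix glycoprotein known from basement membranes of Drosophila. Its values were 10.33, 10.40, 10.42 and 10.57 after dexamethasone and 9.61, 9.68, 9.55 and 9.56 after vehicle. The means were 10.43 ± 0.10 and 9.60 ± 0.06 (SD, n = 4 each), a difference of 0.83 (SE 0.049, adjusted p = 3.43e-06, limma) or 1.78-fold. It ranked 14 of 14715 by the size of the rise. Tinagl1 (Entrez 94242; mm9 chromosome 4, 129841698 to 129852366), which encodes a secreted matricellular protein related to tubulointerstitial nephritis antigen, had values of 11.06, 10.99, 11.17 and 11.11 against 10.25, 10.39, 10.42 and 10.38. Its means were 11.08 ± 0.08 and 10.36 ± 0.08 (SD, n = 4 each). Its difference was 0.72 (SE 0.045, adjusted p = 4.44e-06, limma) or 1.65-fold, rank 25. Both genes were separate between the groups, and their lowest differences on leaving out a library were 0.79 and 0.69.

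Smaller rises were found for genes of anchoring and linking proteins. Smoc1, which encodes a calcium-binding matricellular protein related to Sparc, had values of 11.13, 11.07, 11.14 and 11.20 after dexamethasone and of 10.90, 10.90, 10.77 and 10.93 after vehicle. The means were 11.13 ± 0.05 and 10.87 ± 0.07 (SD, n = 4 each). Its difference was 0.26 (SE 0.040, adjusted p = 0.00127, limma). Its relative Smoc2 had means of 12.12 ± 0.05 and 12.09 ± 0.11 (SD, n = 4 each) and did not pass (adjusted p = 0.754, limma). Col7a1, the anchoring fibril collagen gene, had values of 12.57, 12.54, 12.60 and 12.61 after dexamethasone against 12.45, 12.39, 12.32 and 12.34 after vehicle. The groups of Smoc1 and of Col7a1 did not overlap. The Col7a1 means were 12.58 ± 0.03 and 12.38 ± 0.06 (SD, n = 4 each), and the difference was 0.20 (SE 0.033, adjusted p = 0.00172, limma).

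Agrn, the gene of the heparan sulfate proteoglycan agrin, which binds laminin and dystroglycan, had values of 12.81, 12.82, 12.86 and 12.95 against 12.78, 12.73, 12.67 and 12.66. The means were 12.86 ± 0.06 and 12.71 ± 0.06 (SD, n = 4 each). The difference was 0.15 (SE 0.039, adjusted p = 0.0218, limma). The Agrn call was lost without dexamethasone replicate 4 (adjusted p = 0.0572, limma) or vehicle replicate 4 (0.0752), with a replicate block (0.0607) and with quantile normalization (0.103). Hspg2, the perlecan gene, had 0.05 (95% interval -0.0042 to 0.11, adjusted p = 0.2, limma). The nidogen genes Nid1 and Nid2, which link laminin to collagen, had -0.01 and -0.00015 (adjusted p of 0.921 and 0.999, limma). Col18a1 and Col15a1, collagens with heparan or chondroitin sulfate chains, had -0.01 and 0.03 (adjusted p of 0.922 and 0.685, limma). Hspg2 ranged from 11.69 to 11.74 after dexamethasone and 11.63 to 11.70 after vehicle. Nid1 ranged from 12.01 to 12.16 after dexamethasone and 12.03 to 12.16 after vehicle. Nid2 ranged from 7.66 to 7.79 after dexamethasone and 7.64 to 7.80 after vehicle. Neither nidogen gene was separate between the groups, nor was the perlecan gene. Col18a1 ranged from 7.27 to 7.50 after dexamethasone and 7.33 to 7.49 after vehicle. Col15a1 ranged from 6.23 to 6.36 after dexamethasone and 6.22 to 6.29 after vehicle. The groups of these 5 genes overlapped.

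The Fraser complex genes, whose proteins assemble just below the epithelial basement membrane, had unlike values. Frem2 had values of 11.05, 11.18, 11.17 and 11.34 after dexamethasone and of 10.99, 11.06, 10.85 and 10.96 after vehicle. The lowest treated library lay just below the highest vehicle library. The means were 11.19 ± 0.12 and 10.96 ± 0.08 (SD, n = 4 each), and the difference was 0.22 (SE 0.058, adjusted p = 0.0249, limma). That call was lost without dexamethasone replicate 2 (0.0534) or 4 (0.0566), without vehicle replicate 4 (0.066), with no filter (0.0618) and with quantile normalization (0.0504). Fras1 ranged from 11.07 to 11.23 after dexamethasone and 10.89 to 11.10 after vehicle, overlapping, and had a difference of 0.13 (95% interval 0.02 to 0.24, adjusted p = 0.106, limma). Frem1, the lowest of the 39 genes, had 4.77, 4.71, 4.74 and 4.78 against 4.84, 4.83, 4.79 and 4.85, separate groups with a difference of -0.08 (adjusted p = 0.0618, limma). It passed without vehicle replicate 3 (adjusted p = 0.0435, limma), without both libraries that stood apart (0.0498), with library quality weights (0.0269) and with a pseudocount of 8 (0.0493).

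Ntn4 was the gene that fell. It encodes netrin-4, a laminin-related protein that binds laminin gamma chains and can disturb laminin networks. Its values were 12.04, 12.02, 12.02 and 12.03 after dexamethasone and 12.16, 12.23, 12.12 and 12.22 after vehicle. Every treated library lay below every vehicle library, and the treated values varied little. The means were 12.03 ± 0.01 and 12.18 ± 0.05 (SD, n = 4 each). The difference was -0.16 (SE 0.029, adjusted p = 0.00453, limma).

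**Figure D3:**
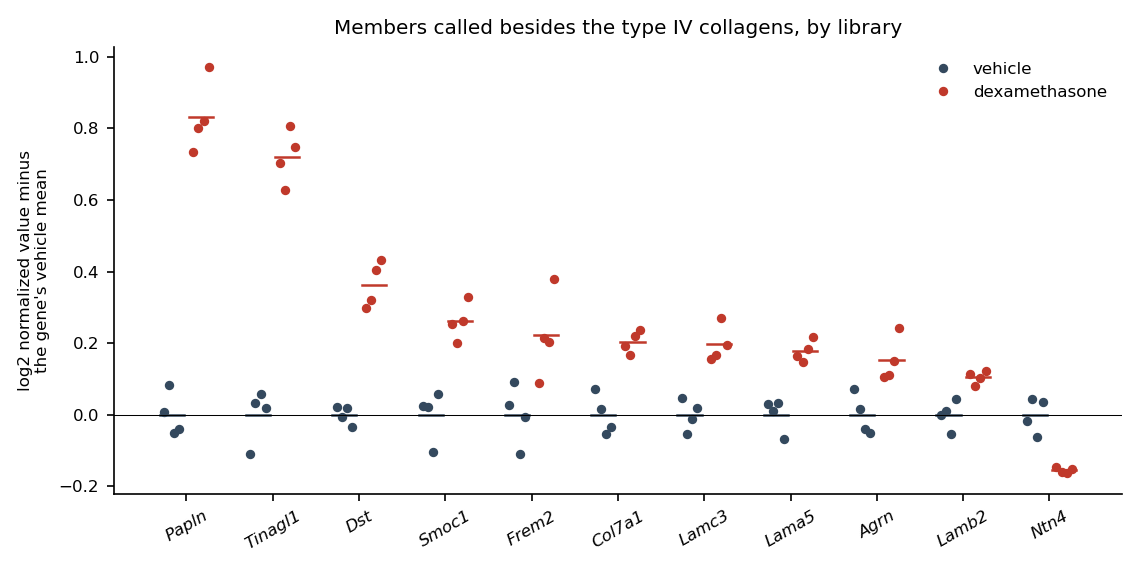
Values of the 11 genes outside the type IV collagens that passed the threshold, in each library, as the log2 normalized value minus the gene's own vehicle mean; short lines are group means. Papln and Tinagl1 stand at 0.83 and 0.72 on average, Ntn4 at -0.16, and Frem2 is the one gene of the plot whose groups overlap.

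In the hemidesmosome Dst rose and the other components did not pass. Dst (Entrez 13518; mm9 chromosome 1, 33965125 to 34365495) encodes BPAG1, a plakin whose epithelial form joins keratin filaments to the hemidesmosome, while other forms serve nerve and muscle. Its values were 14.54, 14.56, 14.65 and 14.67 after dexamethasone and 14.26, 14.23, 14.26 and 14.21 after vehicle. The groups were separate, with means of 14.61 ± 0.06 and 14.24 ± 0.03 (SD, n = 4 each) and a difference of 0.36 (SE 0.036, adjusted p = 6.34e-05, limma) or 1.29-fold. The table has 1 row for the gene, so the forms were not told apart. Plec, the gene of the other plakin plectin, had values of 14.70, 14.51, 14.55 and 14.56 against 14.55, 14.48, 14.82 and 14.46, a difference of 0.01 (95% interval -0.15 to 0.16, adjusted p = 0.971, limma). Dst minus Plec shifted by 0.36 between the groups, from -0.56 to -0.24 after vehicle to -0.16 to 0.11 after dexamethasone (p = 0.0286, exact two-sided permutation test, the smallest possible). The choice of this pair also followed the values, so its p is descriptive.

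Col17a1, the transmembrane collagen of the hemidesmosome and the most abundant of the 39 genes, had means of 16.89 ± 0.06 and 16.91 ± 0.07 (SD, n = 4 each; difference -0.02, 95% interval -0.12 to 0.08, adjusted p = 0.825, limma). Itgb4, the integrin beta4 gene, had values of 13.98, 13.77, 13.80 and 13.79 after dexamethasone and of 13.88, 13.92, 14.18 and 13.84 after vehicle, a difference of -0.12 (adjusted p = 0.293, limma). Its partner Itga6 had values of 14.07, 13.85, 13.88 and 13.89 after dexamethasone against 13.73, 13.70, 14.16 and 13.70 after vehicle. Vehicle replicate 3 was the highest library for both integrin genes. Itga6 had a difference of 0.10 (SE 0.093, adjusted p = 0.502, limma) with all libraries. Without vehicle replicate 3 it was 0.21 (adjusted p = 0.0119, limma), and without both libraries that stood apart 0.16 (SE 0.030, adjusted p = 0.00346, limma). Without both, Itgb4 had -0.09 (SE 0.032, adjusted p = 0.0759, limma). The omitted libraries were high for these integrin genes, which lowers the SE by itself, so the adjusted p of these fits are descriptive.

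The other receptors did not pass in any of the fits. Itga3, the alpha3 integrin gene, had 0.01, Itgb1, its beta1 partner, 0.02, Dag1, the dystroglycan gene, 0.03, and Cd151, the tetraspanin that associates with laminin-binding integrins, -0.06. Their adjusted p was 0.953, 0.756, 0.444 and 0.298 (limma). Itga3 ranged from 13.18 to 13.55 after dexamethasone and 13.12 to 13.60 after vehicle. Itgb1 ranged from 13.12 to 13.24 after dexamethasone and 13.11 to 13.23 after vehicle. Dag1 ranged from 12.69 to 12.75 after dexamethasone and 12.65 to 12.71 after vehicle. The wide range of Itga3 came from its highest library in each group. Cd151 ranged from 11.14 to 11.27 after dexamethasone and 11.20 to 11.30 after vehicle. The groups of all 4 overlapped. The 7 epithelial markers summed to 20.65 to 20.80 after dexamethasone and 20.77 to 20.82 after vehicle, and 1 of them passed, the basal keratin gene Krt5 at -0.23. The part of these marker values in the results for epithelial genes was not tested.

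Genes of the epithelial adhesion complex were high together in the libraries that stood apart. Dexamethasone replicate 1 and vehicle replicate 3 were each the highest of their group for 6 of 9 hemidesmosome components and receptors, 3 of 9 laminins, 2 of 15 linkers and none of 6 type IV collagens, or 11 of 39 in all, against 13.0% of all tested rows. Lamb3 exceeded the mean of the other libraries of its group by 0.73 in vehicle replicate 3 and by 0.46 in dexamethasone replicate 1. The same deviations were 0.65 and 0.33 for Lama3, 0.45 and 0.20 for Itga6, 0.44 and 0.37 for Itga3, 0.30 and 0.19 for Itgb4, and 0.32 and 0.16 for Plec. For Dst they were 0.02 and -0.09, and for Col4a1 -0.02 and 0.03. Dst and Col4a1 thus lay near the other libraries in both. This description was chosen after the values were seen, and the wound marker levels given above move with it; their part was not tested.

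**Figure D4:**
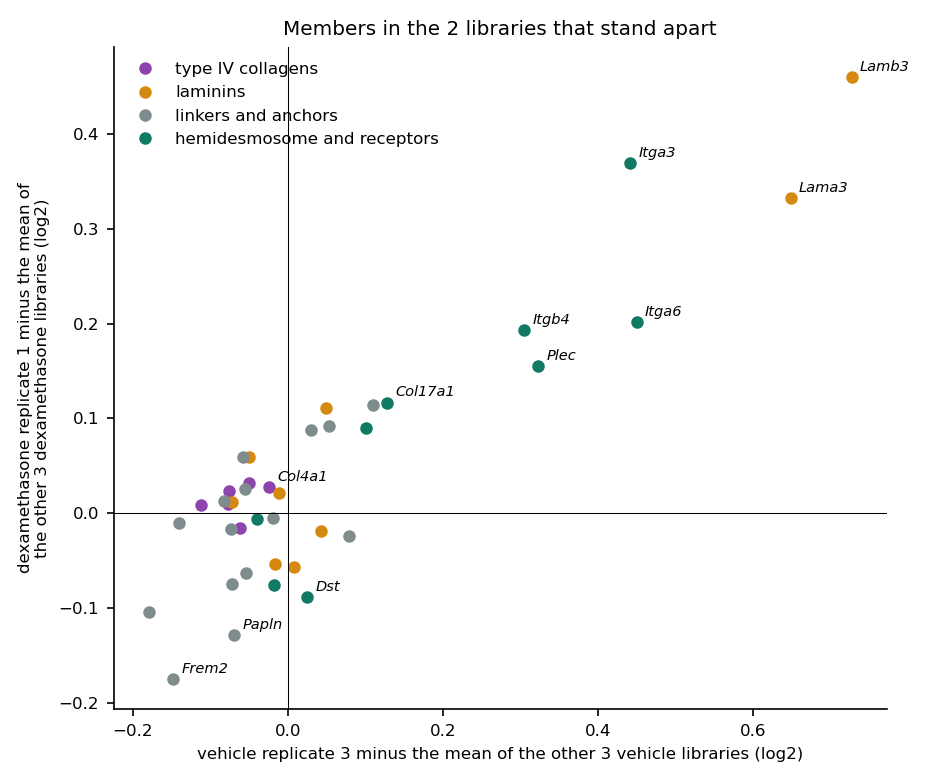
Each of the 39 genes by its deviation in vehicle replicate 3 (x axis) and in dexamethasone replicate 1 (y axis) from the mean of the other 3 libraries of the group, in log2 units and coloured by subgroup. Lamb3, Lama3, Itga3, Itga6, Itgb4 and Plec lie in the upper right, and the type IV collagens lie near 0.

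Levels between genes were compared per kilobase of merged exon, from the vehicle means and the GENCODE vM1 annotation of mm9. On this log2 scale Col17a1 stood at 14.39, well above Itgb4 at 11.14 and Itgb1 at 11.12. Dst was the lowest of the hemidesmosome group at 9.34 over a merged exon length of 29858 bases, which sums its many forms. Among the collagens Col4a1 (10.19) and Col4a2 (9.90) came first, Col4a5 and Col4a3 shared 8.75, and Col4a4 (8.02) and Col4a6 (7.38) followed. Among the laminins the neighbours Lamb2 (9.72), Lamb3 (9.52), Lama3 (9.39) and Lama5 (9.21) differed by less than the SD over libraries of Lamb3 (0.36) and Lama3 (0.33). Lama1 (4.74), Lama4 (3.12) and Lamc3 (2.96) were far lower. Smoc2 led the linkers at 10.57. Papln (7.11) and Tinagl1 (8.48), the genes with the largest rises, were mid to low in level. With the longest transcript as the length, Itga6 moved from 10.65 to 11.71 and Tinagl1 to 9.29.

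**Figure D5:**
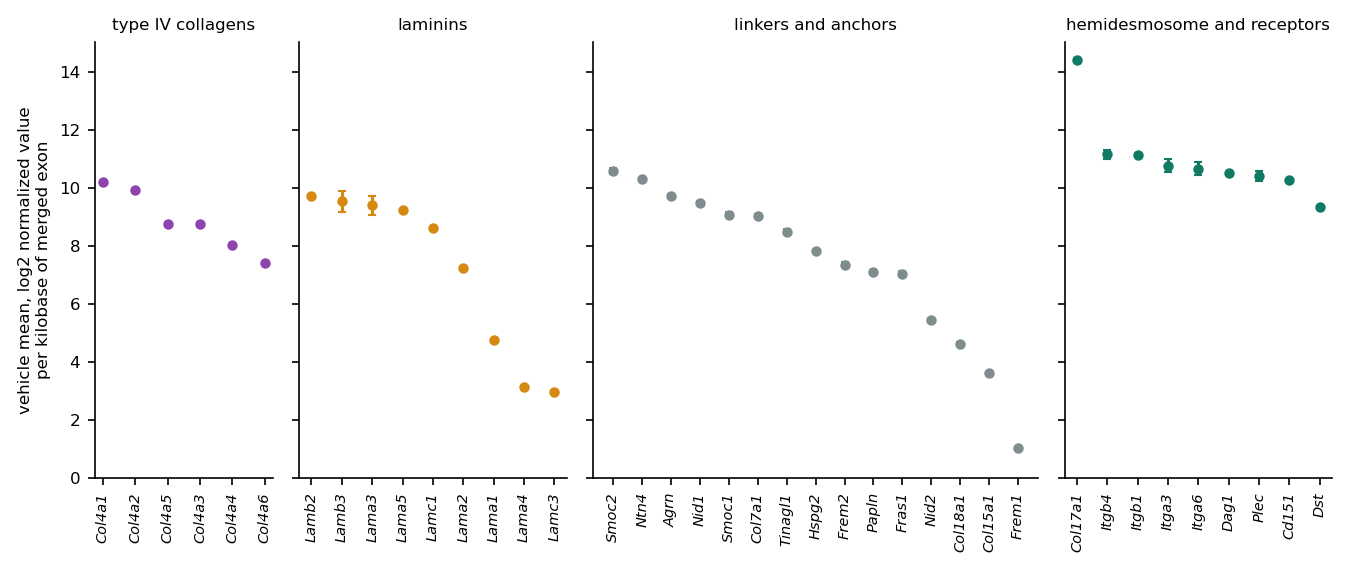
Mean of the 4 vehicle libraries for each gene, as the log2 normalized value per kilobase of merged exon, ordered within the 4 subgroups; bars are the SD over libraries. Col17a1 at 14.39 is the highest and Frem1 at 1.02 the lowest.

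Lists of genes outside the 39 that serve the same structures were read beside the background of 15.1%. Of 18 tested basement membrane components and laminin chains 3 rose, Vwa2 (0.16), Lamb1 (0.16) and Matn2 (0.14), and 1 fell, Npnt (-0.12), the nephronectin gene. Lamb1, the widespread beta1 chain gene, lost its call without dexamethasone replicate 3 (adjusted p = 0.0723, limma) or 4 (0.082) or vehicle replicate 2 (0.0542), 3 (0.0535) or 4 (0.0857). The Lamb1 call was also lost with a replicate block (0.0754), with no filter (0.0585) and with quantile normalization (0.11). Vwa2 lost its call without dexamethasone replicate 4 (0.0556), vehicle replicate 2 (0.0585) or vehicle replicate 4 (0.059). Matn2 lost it in those fits (0.0636, 0.0657 and 0.0737) and on leaving out dexamethasone replicate 3 (0.0573) or vehicle replicate 3 (0.0564), or both libraries that stood apart (0.073). With a replicate block Matn2 did not pass either (0.056). Npnt lost its call without dexamethasone replicate 1 (0.1), 2 (0.109) or 4 (0.098), and on leaving out replicate 1 (0.0706), 2 (0.104) or 4 (0.14) of the vehicle group. The Npnt call was also lost with a replicate block (0.0911), with no filter (0.0756) and without the trend (0.0536). Col8a1 and Col8a2, the Descemet's membrane collagens, had 0.04 and 0.10 (adjusted p of 0.56 and 0.0711, limma) and did not pass.

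Of 22 other matrix receptors and adaptors 3 rose and 1 fell. Itgb5, an integrin beta chain gene, was 12.79 ± 0.03 against 12.47 ± 0.04 (SD, n = 4 each), a difference of 0.31 (SE 0.029, adjusted p = 4.74e-05, limma). Itga8 (0.21) and Itga7 (0.16), the latter a laminin-binding integrin chain gene, also rose. Sdc1, the syndecan-1 gene, had -0.14, a call lost without dexamethasone replicate 1 (adjusted p = 0.0521, limma) or 4 (0.0791) or vehicle replicate 2 (0.0667), 3 (0.0507) or 4 (0.0583), and without both libraries that stood apart (0.0659). Itga7 lost its call without dexamethasone replicate 3 (0.0517) or vehicle replicate 4 (0.0516), and with a replicate block (0.0625).

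Of 12 collagen assembly enzymes 2 rose and 1 fell. Leprel1, a prolyl 3-hydroxylase gene whose product acts on type IV collagen, was 12.06 ± 0.05 after dexamethasone and 11.69 ± 0.03 after vehicle (SD, n = 4 each), a difference of 0.37 (SE 0.031, adjusted p = 2.1e-05, limma). Pxdn, the gene of peroxidasin, which cross-links type IV collagen, fell from 8.01 ± 0.05 to 7.73 ± 0.05 (SD, n = 4 each; difference -0.28, SE 0.040, adjusted p = 0.000871, limma). Both were separate between the groups. P4ha2, a prolyl 4-hydroxylase gene, had 0.18 (adjusted p = 0.0479, limma). It lost its call on leaving out any library but dexamethasone replicate 4, with adjusted p of 0.0508 (without dexamethasone replicate 1) to 0.118 (without dexamethasone replicate 2), and without both libraries that stood apart (0.0632). The P4ha2 call was also lost with a replicate block (0.085), with no filter (0.0899) and without the trend (0.0505). Serpinh1, the collagen chaperone gene, had -0.09 (adjusted p = 0.203, limma). Of 9 tested dystroglycan glycosylation genes 1 rose, B3galnt2 (0.16), which lost its call without dexamethasone replicate 1 (0.0521), 3 (0.0569) or 4 (0.0655), and on leaving out replicate 1 (0.0574), 2 (0.061) or 4 (0.0654) of the vehicle group.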

How the data were processed

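RNA was measured by sequencing in 8 libraries of pooled whole corneas. Per the submitters' processing notes the authors used Bowtie2, HTSeq and DESeq2 with the mouse build mm9; the sources used here name no tool version, gene annotation, strand setting or transformation. The authors deposited 1 table of log2 normalized values, with each column matched to a library by its title. The values behave as shrunken: the within-group SD had a median of 0.0213 in the 812 rows whose mean was 2 to 3, where a Poisson count of 8 would have 0.51. The depth behind each value is unknown, so counting intervals are absent. Reads of overlapping genes cannot be told apart, as strandedness is not stated.

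limma 3.58.1 (R 4.3.3) was fitted to 14715 rows (mean at or above 3), with group as the only term, variance moderation along the level trend and Benjamini-Hochberg adjustment over all those rows. Its 95% intervals use the moderated standard error. The fit was tested on simulated data. Each replicate is its own pool of corneas, and no label links pools across groups. No 2 libraries were alike within noise (smallest SD of a difference 0.067). Python 3.11.15, NumPy 2.4.6, SciPy 1.17.1 and pandas 2.3.3 were used for exact permutation tests and tables. Gene coordinates and exon lengths were read from the GENCODE vM1 annotation (assembly NCBIM37, equal to mm9) and matched by symbol (39 of 39). In it 5 of the 39 genes (Cd151, Nid2, Itgb4, Lamc3 and Dst) share over 1.5% of their exon length with another gene. Promoter windows came from RefSeq on GRCm38.p6. No lists were tested as sets.

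The 39 genes and all lists were chosen with earlier results of these data known. All 39 are reported; of each other list up to 4 genes that passed are named by adjusted p, or 2 by level where none did. Tie1, Krt5, Myh11, Col8a1, Col8a2 and Serpinh1 were added once their values were known. So were the other pericyte and smooth muscle markers, the single wound keratins, Kdr, Kera, Lum, Cd34, Krt7 and Ngfr. The alternatives were a replicate block, library quality weights, a fit without the trend, robust moderation, median centring or quantile normalization, no filter or a filter of at least 5, a pseudocount of 8, leaving out each library, and leaving out the 2 that stood apart. Lists that changed no statement (stroma, conjunctiva, Schwann cell, leukocyte, iris) are given in the closing section. One result is not reported here.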

Additional observations from a re-analysis of the deposited data

Results flagged for a closer look

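In groups of 4 libraries, a single library was set apart where its gap to the nearest other library, divided by the range of the group, exceeded Dixon's critical value at the 95% level. This held for 13 of 128 groups, from 64 screened genes, where chance gives about 1 in 20, or 6.4. Screened were the 39 genes, the passing genes named from the related lists, the treatment targets, Col8a1, Col8a2 and Serpinh1. The markers Krt5, Tie1, Myh11, Krt16, Krt6a, Krt6b and Krt17 were screened too. These genes were chosen with results known and vary together within a library, so 6.4 is only a rough guide. Vehicle replicate 3 was highest for Lama3 (0.836), Lamb3 (0.938), Itga6 (0.926), Itga3 (0.866) and B3galnt2 (0.872). Dexamethasone replicate 1 was highest for Lamb3 (0.878), Itgb4 (0.892) and Itga3 (0.952) and lowest for Itgb5 (0.843). The wound keratin gene Krt16 was highest in vehicle replicate 3 (0.836) and in dexamethasone replicate 1 (0.842). Vehicle replicate 1 was highest for Pxdn (0.896), and dexamethasone replicate 2 was lowest for B3galnt2 (0.929). All 7 entries of the 39 basement membrane and hemidesmosome genes were high values in vehicle replicate 3 or dexamethasone replicate 1, in genes of laminin-332 and its integrins.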

How the results depend on the processing

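Of the 14 genes that passed, 10 passed in each of 18 alternatives, none changed sign, and the exceptions were Col4a3, Lamb2, Agrn and Frem2. Of the 25 others 18 passed in no alternative and 10 changed sign in at least 1. The number of risers was 13, and 9 to 15 on leaving out 1 library, 11 with a replicate block, 11 with no filter and 9 with quantile normalization. The number of fallers was 1, and 1 to 2 on leaving out 1 library; it was 2 with library quality weights, with a pseudocount of 8 and without both dexamethasone replicate 1 and vehicle replicate 3, Frem1 being the second. Over all rows 2218 passed, 1411 (without vehicle replicate 4) to 2131 on leaving out 1 library. With a replicate block 1675 passed, and 2202 without both libraries that stood apart. Replicate numbers did not pair the libraries: deviations of same-numbered libraries correlated at -0.31 to 0.19, and no dexamethasone library correlated best with its own number, so the block carries no pairing. Of 144 subgroup counts 137 stayed within 1.5 times. That share includes counts of 0 in both fits, as for fallers among collagens, laminins and receptors. It also includes falls from 3 to 2, as when Col4a3 or Lamb2 lost its call, so it says little about single genes. Levels per kilobase moved by more than 1 SD in 23 of 39 genes with the longest transcript, and 12 changed their order within the subgroup.

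Other marker lists, as summed log2 levels, ran from 18.66 to 18.76 after dexamethasone and 18.65 to 18.71 after vehicle for stroma, 17.60 to 17.71 and 17.51 to 17.62 for conjunctiva and limbus, 13.08 to 13.17 and 13.08 to 13.15 for Schwann cells and nerve, 13.07 to 13.14 and 13.09 to 13.14 for leukocytes, and 10.30 to 10.67 and 10.34 to 10.58 for iris and ciliary body. Single markers of these lists passed although the sums overlapped. Of the stroma list Cd34 rose (0.24), and Kera (-0.14) and Lum (-0.18) fell. Krt7 of the conjunctiva list rose (0.17), and Ngfr of the nerve list fell (-0.17). No leukocyte or iris marker passed. The shrunken values limit what low genes such as Frem1 and Lamc3 can show.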
